A study of Mus musculus with 12 samples.

Results

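The chemokine receptor gene Ccr2 and the genes counted here as its ligands, Ccl2, Ccl7, Ccl8 and Ccl12, were followed through 12 bulk RNA libraries of 4T1 tumors. They are 5 of the 55401 genes of the deposited expression table, found by their symbols, and all 5 were among the 15504 genes with enough signal to be tested. The set was chosen by biology and also with measured values of these data in view, since the low level of Ccl12 after CSF1R antibody treatment was already known. Comparisons that include the antibody group are therefore described here with no test.

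4T1 is a mouse mammary carcinoma line, injected orthotopically into Balb/c mice, and per the labels treatment began once tumors reached 100 mm3. The 4 groups of 3 tumors each received an isotype control (IgG1-Fc, called control), recombinant IL10-Fc protein (IL-10-Fc), a CSF1R antibody (aCSF1R) or BF10, the IL10/CSF1R fusion protein in which, per the study's methods, human IL-10 is joined to the antibody clone AFS98. The labels speak of 6 doses and the study's other descriptions of fewer, so the number of doses is uncertain. All hosts carried the same tumor line and no genetic change is stated for them, the ages are not given in the labels used here, and whole tumor tissue was sequenced, so each value averages over tumor, stromal and immune cells. The labels do not say that the 3 libraries of a group are separate animals, so p-values measure the spread between these libraries.

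CCR2 is a G protein-coupled receptor that classical monocytes use to leave the bone marrow and to enter inflamed tissue and tumors, where many become macrophages. CCL2 (MCP-1) is its best known ligand, and CCL7 (MCP-3), CCL8 (MCP-2) and CCL12 (MCP-5) belong to the same monocyte chemoattractant protein family, whose genes arose by duplication. CSF1R, the target of the antibody, is the receptor that most tissue macrophages need for survival, and IL-10 is a cytokine that acts on macrophages and T cells through its own receptor.

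The 4 ligand genes lie in 1 cluster on chromosome 11. In GRCm38, Ccl2 (ENSMUSG00000035385) runs from 82035571 to 82037453, Ccl7 (ENSMUSG00000035373) from 82045712 to 82047525, Ccl12 (ENSMUSG00000035352) from 82101845 to 82103400 and Ccl8 (ENSMUSG00000009185) from 82115185 to 82116799, all on the plus strand. The eosinophil chemoattractant gene Ccl11 sits between Ccl7 and Ccl12, and the stretch from the start of Ccl2 to the end of Ccl8 measures 81.2 kb. Ccr2 (ENSMUSG00000049103) lies on chromosome 9 from 124101950 to 124113557 on the plus strand. Among the ligands, the neighbours Ccl12 and Ccl8 had the widest gaps between the aCSF1R and control means, so the 250 bases before their starts are shown (RefSeq, GRCm38.p6, plus strand, chr11:82101595-82101844 and chr11:82114935-82115184), with motif matches in capitals.
Ccl12: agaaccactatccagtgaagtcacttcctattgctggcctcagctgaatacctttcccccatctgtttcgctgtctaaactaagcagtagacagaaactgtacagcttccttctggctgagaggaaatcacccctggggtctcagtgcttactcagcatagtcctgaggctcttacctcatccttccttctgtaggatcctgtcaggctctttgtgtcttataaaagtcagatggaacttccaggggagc
Ccl8: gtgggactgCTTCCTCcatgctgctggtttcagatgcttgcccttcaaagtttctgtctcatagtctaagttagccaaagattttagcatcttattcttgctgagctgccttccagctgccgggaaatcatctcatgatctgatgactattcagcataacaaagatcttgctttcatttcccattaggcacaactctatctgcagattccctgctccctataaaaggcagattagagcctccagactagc
Promoter windows of 300 bases, from 250 before to 50 after the start, were found for 3 of the 5 genes, Ccl8, Ccl12 and Ccr2. They were searched on both strands for AP-1 (TGANTCA, in 7.81% of the 32851 mouse promoter windows), C/EBP (TTGCNNAA, 10.8%), the PU.1 core (GAGGAAG, 13.6%), an interferon element (GAAANNGAA, 8.56%), a STAT element (TTCNNNGAA, 8.30%) and the NF-kB motif (8.46%). The Ccl8 window held 1 match, to the PU.1 core on the reverse strand at -241 (CTTCCTC, the capitals above), and the Ccr2 window 1 match, to the interferon element on the reverse strand at -86. The RefSeq start of Ccr2 used for its window lies inside the gene span given above, so that match lies within the annotated gene. None of these letters occurred in the Ccl12 window, and the matches were not compared with expression.

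Levels are given as TPM (the deposited FPKM of each library brought to the same total), which are per transcript length and so can be set side by side between genes. The libraries fell into 2 sets by the sum of their deposited FPKM, 782919 to 921581 in 5 libraries (control replicates 4 and 7, IL-10-Fc replicate 7, aCSF1R replicate 8 and BF10 replicate 6, called higher-sum) and 609695 to 648413 in the other 7 (lower-sum). Mitochondrial genes held 5.90% to 9.26% of the values in the higher-sum and 3.14% to 3.96% in the lower-sum libraries. With groups held in the model, the 5 genes were higher in the higher-sum libraries by 0.12 (Ccl2), 0.58 (Ccl7), 0.75 (Ccl8), 0.48 (Ccl12) and 0.25 (Ccr2) on the log2 scale. No label names these sets as a batch.

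Ccl12, one of the 4 ligands, showed the widest range across the tumors. Its TPM was 172, 109 and 114 in control replicates 4, 5 and 7, and 58.0, 62.8 and 99.3 in IL-10-Fc replicates 2, 4 and 7. It was 5.79, 2.53 and 3.77 in aCSF1R replicates 4, 6 and 8, and 62.2, 127 and 74.0 in BF10 replicates 3, 6 and 7. All 3 aCSF1R libraries lay far below the other 9, while the IL-10-Fc libraries lay below all 3 control libraries and BF10 overlapped both. The group means were 132 ± 35.2 in control, 73.3 ± 22.6 in IL-10-Fc, 87.8 ± 34.6 in BF10 and 4.03 ± 1.65 in aCSF1R (SD, n = 3 each). By a rough estimate of depth, the aCSF1R values rest on 66, 26 and 53 reads, so Ccl12 was low there and not absent.

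Ccr2, the receptor, followed the same order between aCSF1R and the rest with a smaller span. Its TPM was 88.2, 56.9 and 72.2 in control, 35.9, 51.4 and 60.7 in IL-10-Fc, 74.7, 67.2 and 55.8 in BF10 and 13.8, 9.23 and 11.01 in aCSF1R, each in the replicate order given for Ccl12. The aCSF1R libraries again lay below all others, and the remaining 3 groups overlapped. The means were 72.4 ± 15.6, 49.3 ± 12.5, 65.9 ± 9.49 and 11.3 ± 2.29 (SD, n = 3 each, groups in the same order).

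Ccl8 was the most abundant ligand in 11 of 12 libraries. Its TPM was 516, 104 and 459 in control, 189, 370.2 and 459 in IL-10-Fc, 298, 353 and 191 in BF10 and 124, 86.2 and 68.5 in aCSF1R. The aCSF1R libraries lay below all those of IL-10-Fc and BF10, but control replicate 5, at 104, fell among them. The means were 359 ± 223 in control, 339 ± 137 in IL-10-Fc, 280.5 ± 82.7 in BF10 and 93.0 ± 28.6 in aCSF1R (SD, n = 3 each).

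Ccl2 and Ccl7, at the other end of the cluster, did not separate the groups. Ccl2 was at 64.3, 43.5 and 16.4 TPM in control, 34.8, 54.5 and 67.2 in IL-10-Fc, 64.5, 51.4 and 23.4 in BF10 and 44.9, 19.4 and 26.9 in aCSF1R. Ccl7 was at 76.8, 30.5 and 16.8 TPM in control, 19.8, 41.8 and 57.2 in IL-10-Fc, 51.8, 41.3 and 15.7 in BF10 and 26.0, 10.3 and 25.6 in aCSF1R. For both genes each pair of groups overlapped, and control libraries alone spanned the range of most other tumors. The means of Ccl2 were 41.4 ± 24.04, 52.1 ± 16.3, 46.5 ± 21.0 and 30.4 ± 13.1, and those of Ccl7 41.4 ± 31.4, 39.6 ± 18.8, 36.3 ± 18.6 and 20.6 ± 8.99 (SD, n = 3 each, groups in the same order).

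**Figure D1:**
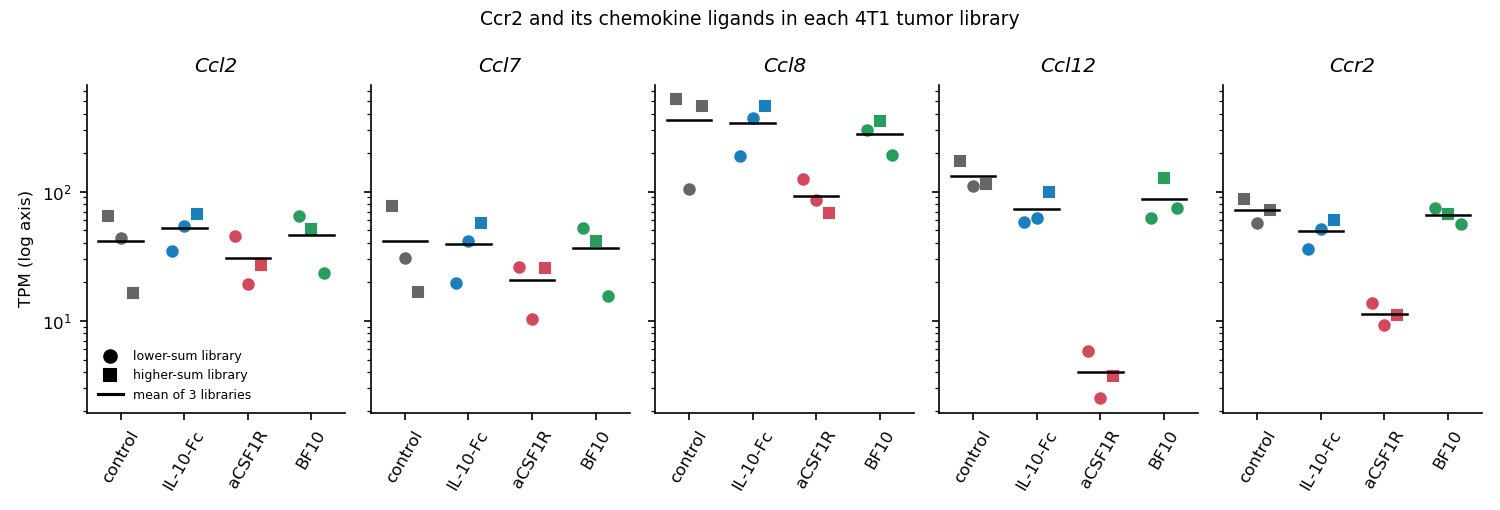
TPM of Ccr2 and its 4 ligand genes in each library on a log axis, with 3 libraries per group, the mean as a bar, and squares for the higher-sum and circles for the lower-sum libraries. Ccl12 lies at 2.53 to 5.79 TPM in aCSF1R against 58.0 or more elsewhere, and the groups overlap for Ccl2 and Ccl7.

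The order of the 5 genes by mean level was Ccl8, Ccl12, Ccr2 and then Ccl2 and Ccl7 (both 41.4 TPM) in control. In aCSF1R it was Ccl8, Ccl2, Ccl7, Ccr2 and Ccl12, so Ccl12 moved from the second to the last place. Each of the 5 genes had its lowest group mean in aCSF1R, also with FPKM as deposited or scaled by the median of ratios. In bulk tissue, fewer cells of a type and less RNA per cell cannot be told apart.

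The comparison of aCSF1R with control asks what the antibody alone did to the tumor. Differences are given on the log2(TPM + 1) scale with the standard error of a model fitted to all 12 libraries, and a gene is called where it differs at least 1.5-fold and its p, adjusted by Benjamini and Hochberg over all tested genes, is below 0.05. Ccl12 was lower in aCSF1R than in control, with a difference of -4.74 (SE 0.36), or 26.8-fold on this scale, as was Ccr2, with -2.57 (SE 0.27), or 5.93-fold. Ccl8 differed by -1.68 (SE 0.57), Ccl7 by -0.81 (SE 0.64) and Ccl2 by -0.32 (SE 0.54). The rule calls 2 of the 5 genes, Ccl12 and Ccr2, as lower, against 0.568% of all tested genes, and the groups do not overlap for the same 2, against 3.68%. These shares are given for scale only, since the values of this contrast were known when the genes were chosen.

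The Ccl8 difference rested on which control libraries were used. Within the lower-sum set, where control replicate 5 stands alone, aCSF1R and control differed by -0.0035, and within the higher-sum set by -2.81 with 1 aCSF1R library. Without control replicate 5 the difference was -2.42, the groups did not overlap and the gene was called. That setting leaves fewer control libraries, and its share of non-overlap over all genes was not computed. Ccl12 differed by -4.50 and -4.89 within the lower-sum and the higher-sum set, and Ccr2 by -2.24 and -2.75. For Ccl7 the values were -0.85 and -0.48 and for Ccl2 -0.54 and -0.27. Without control replicate 4 the Ccl2 difference was 0.092, so even its sign turned on 1 library.

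BF10 carries the same antibody with IL-10 attached. Per the study's methods the proteins differ in size, and doses by weight were set by molecular weight to be equivalent. The difference in size remains, so the comparison with aCSF1R does not by itself isolate the IL-10 part. Ccl12 was higher in BF10 than in aCSF1R by 4.13 (SE 0.36), 17.5-fold on this scale, Ccr2 by 2.44 (SE 0.27), 5.44-fold, and Ccl8 by 1.58 (SE 0.57), 2.99-fold. The differences were 0.73 (SE 0.64) for Ccl7 and 0.56 (SE 0.54) for Ccl2. Called as lower in aCSF1R were 2 of the 5, Ccl12 and Ccr2, against 0.735% of tested genes, and the groups did not overlap for 3, Ccl8 with them, against 4.33%. Within the lower-sum and the higher-sum set the difference was 3.81 and 4.75 for Ccl12, 2.41 and 2.50 for Ccr2, and 1.19 and 2.35 for Ccl8. Without BF10 replicate 7 all 5 genes lay above every aCSF1R library. Fewer libraries separate more easily, and the share over all genes was not computed for that setting.

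IL-10-Fc against aCSF1R gave a like order of the genes, and it shares the aCSF1R libraries with the comparisons above. The differences were 3.90 (SE 0.36) for Ccl12, 2.01 (SE 0.27) for Ccr2, 1.81 (SE 0.57) for Ccl8, 0.89 (SE 0.64) for Ccl7 and 0.79 (SE 0.54) for Ccl2. Again 2 of the 5, Ccl12 and Ccr2, were called, against 0.542% of tested genes, and 3 did not overlap, Ccl8 being the other, against 5.90%. Within the lower-sum and the higher-sum set Ccl12 differed by 3.65 and 4.40, Ccr2 by 1.84 and 2.36 and Ccl8 by 1.35 and 2.73. Without IL-10-Fc replicate 2 all 5 genes lay above every aCSF1R library, again with fewer libraries and no share over all genes computed.

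The comparisons that leave out the aCSF1R libraries were tested. Against control, IL-10-Fc asks what IL-10 alone did. Ccl12 was at a difference of -0.85 (SE 0.36, 95% interval -1.64 to -0.055), with an adjusted p of 0.738 by limma, and Ccr2 at -0.56 (SE 0.27, interval -1.15 to 0.041), also at an adjusted p of 0.738. Both values were negative in each set, at -0.85 in the lower-sum and -0.49 in the higher-sum libraries for Ccl12 and at -0.40 and -0.39 for Ccr2. Ccl2 was at 0.47 (SE 0.54), Ccl8 at 0.13 (SE 0.57) and Ccl7 at 0.081 (SE 0.64), where the signs of Ccl8 and Ccl7 flipped to -0.31 and -0.35 under scaling by the median of ratios. None of the 5 passed (1 had an unadjusted p below 0.05, Ccl12), against 0.00645% of all genes called, and the groups did not overlap for 1 of 5, Ccl12, against 6.53%. The Ccl12 adjusted p ran from 0.317 to 1 over the alternatives tried.

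BF10 against control asks what the fusion did relative to the isotype. Ccl12 was at -0.62 (SE 0.36, 95% interval -1.41 to 0.17; adjusted p 0.788 by limma), and Ccr2 at -0.12 (SE 0.27, interval -0.72 to 0.47). Ccl8 was at -0.099 (SE 0.57), Ccl7 at -0.076 (SE 0.64) and Ccl2 at 0.24 (SE 0.54), the last at -0.12 under the median of ratios. Of the 5, 0 were called and 0 had an unadjusted p below 0.05, against 0% of all genes called (234 with an unadjusted p below 0.05), and no group pair was free of overlap, against 3.53% of genes. The intervals are wide: for Ccl8 they ran from -1.37 to 1.17, so sizeable differences either way were not detectable with 3 libraries a group.

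BF10 and IL-10-Fc share the cytokine and too differ in size, with doses again set by molecular weight. The comparison therefore does not by itself isolate the antibody part. Ccr2 was at 0.43 (SE 0.27, interval -0.16 to 1.03) and Ccl12 at 0.23 (SE 0.36, interval -0.56 to 1.02). Ccl2, Ccl7 and Ccl8 were at -0.23 (SE 0.54), -0.16 (SE 0.64) and -0.23 (SE 0.57). Each of the 5 had an adjusted p of 1 by limma, 0 were called or had an unadjusted p below 0.05, against 0% of all genes called (42 with an unadjusted p below 0.05), and 0 of the group pairs were free of overlap, against 2.13%.

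**Figure D2:**
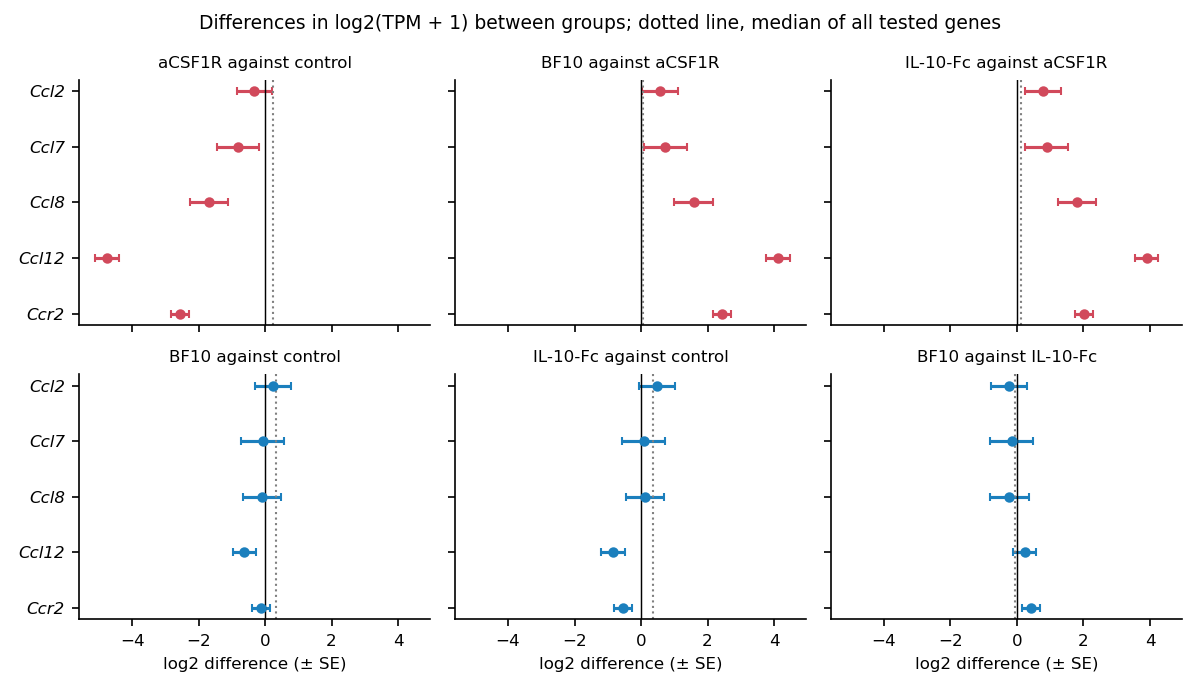
Differences in log2(TPM + 1) between pairs of groups for the 5 genes, with bars of 1 standard error from the fit to all 12 libraries, and a dotted line for the median of all 15504 tested genes. The upper panels hold the aCSF1R comparisons, where Ccl12 lies at -4.74, 4.13 and 3.90, and the lower panels those without aCSF1R, where the points lie between -0.85 and 0.47.

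The median difference of all tested genes against control was above 0, at 0.35 for IL-10-Fc, 0.32 for BF10 and 0.24 for aCSF1R. Control had 2 higher-sum libraries and each other group 1. With the library set as a term the medians were 0.10, 0.068 and 0.0068, in the same order. Scaling by the median of ratios brought the medians of the main fit to -0.0049, 0.015 and 0.029, and lowered the values of the 5 genes as well. Ccl12 stood at -1.28 in IL-10-Fc (adjusted p 0.858 by limma), at -0.99 in BF10 and at -4.96 in aCSF1R against control.

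The make-up of the ligand transcripts does not depend on scaling, as it is a ratio within a library. Ccl12 held 20.8%, 38.09% and 18.8% of the summed TPM of the 4 ligands in control replicates 4, 5 and 7, and 19.2%, 11.9% and 14.5% in IL-10-Fc replicates 2, 4 and 7. It held 2.88%, 2.13% and 3.02% in aCSF1R replicates 4, 6 and 8 and 13.1%, 22.2% and 24.4% in BF10 replicates 3, 6 and 7. Its share in the aCSF1R libraries lay below that in all others, while Ccl2 held 16.4% to 22.3% of the sum there against 2.71% to 15.2% in control. Ccl8 held most of the rest, with 36.1% to 75.7% in control and 54.9% to 72.8% in aCSF1R.

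The ratio of Ccl12 to Ccl2 was 0.129 to 0.140 in the 3 aCSF1R libraries. It was 2.51 to 6.94 in control, 1.15 to 1.67 in IL-10-Fc and 0.963 to 3.16 in BF10. The aCSF1R ratios lay within a narrow band although Ccl2 itself ranged from 19.4 to 44.9 TPM, and the IL-10-Fc ratios lay below the 3 control ratios. The summed ligand level was 574 ± 272 TPM in control, 504 ± 192 in IL-10-Fc, 451 ± 137 in BF10 and 148 ± 46.1 in aCSF1R (SD, n = 3 each). The ligand sum per Ccr2 was 5.04 to 9.41 in control, 8.42 to 11.25 in IL-10-Fc, 5.44 to 8.53 in BF10 and 11.32 to 14.6 in aCSF1R, so IL-10-Fc reached close to the lowest aCSF1R value.

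**Figure D3:**
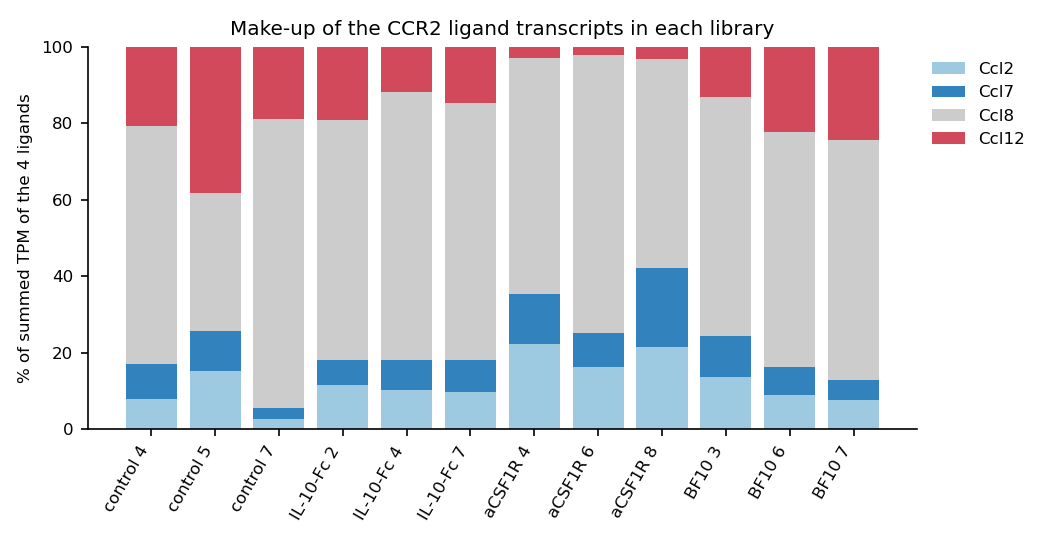
Stacked bars of the share of each ligand gene in the summed TPM of the 4 ligands (0 to 100%), 1 bar per library. Ccl12 makes up 2.13% to 3.02% in the aCSF1R libraries and at least 11.9% in the others.

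The 5 genes also varied from library to library. Ccl2 and Ccl7 had a Pearson's r of 0.916 over the 12 libraries on the log2(TPM + 1) scale, and 0.923 over the 9 without aCSF1R. Ccl12 and Ccr2 had an r of 0.978 over 12 and 0.685 over the 9, and Ccl8 had 0.825 with Ccr2 and 0.788 with Ccl12 over 12, which fell to 0.548 and 0.353 over the 9. Ccl7 had 0.590 with Ccl8, 0.573 with Ccr2 and 0.528 with Ccl12 over 12, and 0.478, 0.521 and 0.363 over the 9. Ccl2 had 0.407 to 0.436 with Ccl8, Ccl12 and Ccr2 over 12, and 0.0845 to 0.210 over the 9. These correlations are descriptions: the points share treatment groups and library sets, and the aCSF1R libraries were known to be low. Control replicate 7 lay near the lower end of the Ccl2 and Ccl7 band and control replicate 4 near the upper end, whereas Ccl12 and Ccr2 were split by the gap between aCSF1R and the rest.

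**Figure D4:**
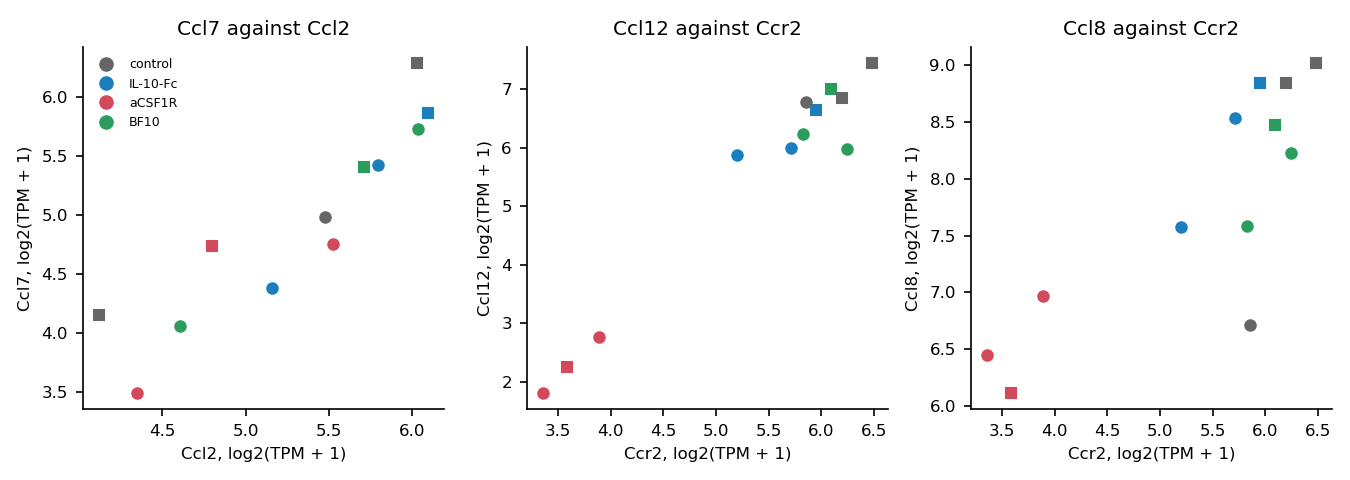
Levels of Ccl7 against Ccl2, Ccl12 against Ccr2 and Ccl8 against Ccr2 in log2(TPM + 1), 1 point per library, with colors for groups and squares for higher-sum and circles for lower-sum libraries. Ccl2 and Ccl7 form 1 band with all groups mixed (r = 0.916), and Ccl12 and Ccr2 form 2 clusters, the aCSF1R libraries at the lower left (r = 0.978).

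The tested genes most like each one, by Pearson's r over the 12 libraries, were as follows. For Ccl12 they were Tmem273 (0.988), the complement gene C1qc (0.987) and Slamf9 (0.984), and for Ccr2 the protease gene Ctss (0.988), the Fc receptor gene Fcgr3 (0.985) and the inflammasome adaptor gene Pycard (0.985). For Ccl2 they were Coq10b (0.953), the collagen gene Col5a2 (0.919) and the matrix gene Postn (0.918), and for Ccl7 Postn (0.967), Marcks (0.944) and Tceal8 (0.944). For Ccl8 they were Gm47754 (0.945), Tmem160 (0.933) and Gmfg-ps (0.932), of which Gm47754 and Gmfg-ps averaged under 3 TPM in each group. Each gene was picked as a highest r among all tested genes, so high values are built in. All those named, except Col5a2, had their lowest mean in aCSF1R, as the 5 members did. For Ccl12 and Ccr2 the r thus includes the known gap between aCSF1R and the rest. The r without aCSF1R was not computed for any of them.

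The genes beside these in both clusters were read from the same fit. Ccl11 was at 15.4 ± 5.79 TPM in control and 27.9 ± 20.8 in aCSF1R (SD, n = 3 each), a difference of 0.51 (SE 0.63, not called), and Ccl1, a T cell chemokine gene, lay at or below 2.63 TPM in every library. In the receptor cluster Ccr1 was at 53.9 ± 25.1 TPM in control and 12.1 ± 6.36 in aCSF1R (-2.10, SE 0.41, not called), and Ccr3, the eosinophil receptor gene, at 1.07 ± 0.659 and 0.491 ± 0.180 (-0.43, SE 0.28, not called; SD, n = 3 each). In BF10 Ccr1 was at 51.8 ± 14.4 TPM (SD, n = 3), with each library above all aCSF1R libraries.

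Other genes of the pathway were taken from lists of 165 genes, of which 152 were tested. Of the 12 tested CC ligand genes outside the family 1 was lower and 0 higher in aCSF1R than in control, Ccl6, a myeloid chemokine gene at 546 ± 114 TPM in control and 79.5 ± 13.9 in aCSF1R (SD, n = 3 each; -2.76, SE 0.32), with a list median of -0.71 beside 0.24 for all genes. Of the 6 tested CC receptor genes outside the members 1 was called as lower and 0 as higher, with a median of -0.19. Of 18 genes of CCR2 signalling, such as G proteins, PI3K and Rac, none was called (median 0.016), and of 21 genes known to induce the transcription of CCR2 ligands, such as NF-kB, TNF and interferon pathway members, none was called (median 0.35). Of 9 genes of the CSF1R and IL-10 pathways none was called (median 0.41).

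The receptors of the treatments, Csf1r and Il10ra, were not called in aCSF1R against control. Csf1r was at 18.8 to 92.7 TPM in control, 36.4 to 89.8 in IL-10-Fc, 26.7 to 139.8 in BF10 and 1.26 to 20.6 in aCSF1R, so aCSF1R and control overlapped (-2.21, SE 0.91). Il10ra was at 7.75 to 16.7 TPM in control, 0.510 to 4.73 in aCSF1R and 7.42 to 19.8 in BF10 (-1.73, SE 0.55, aCSF1R against control).

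Markers of cells that could carry these transcripts were read beside them, and those called were mostly macrophage genes. Of 12 macrophage genes 12 had a negative difference in aCSF1R against control and 8 were called (median -2.98), among them C1qc (-4.05, SE 0.31), C1qa (-3.98, SE 0.37), Msr1 (-3.75, SE 0.22) and C1qb (-3.47, SE 0.48), the complement C1q chains and a scavenger receptor. Their summed TPM was 1863 to 2403 in control, 1582 to 1735 in IL-10-Fc, 1796 to 1969 in BF10 and 91.4 to 268 in aCSF1R. Of 10 resident macrophage genes all 10 were negative and 1, the chemokine gene Pf4, was called (-2.66, SE 0.40, list median -1.39). Of 11 classical monocyte genes, the cells that carry most CCR2, 7 were negative and 0 called (median -0.11), with a summed TPM of 6033 to 6562 in control and 4549 to 8850 in aCSF1R. Most of that sum came from S100a4 (mean 4806 TPM in control and 4599 in aCSF1R) and Fn1 (1270.5 and 1382), while Ms4a4c was at 12.1 to 18.4 TPM in control and 1.35 to 6.03 in aCSF1R and Gpr141 at 5.76 to 13.9 and 1.06 to 3.56, neither being called. Of these genes S100a4, Fn1 and Gpr141 were singled out after their values were seen. Neither the macrophage nor the monocyte list had a gene at 0 in a whole group, and the part of these cells in the levels of Ccl12 and Ccr2 was not tested.

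The other lists had 0 genes called in aCSF1R against control. Their medians were 0.043 for 8 nonclassical monocyte genes, 0.046 for 10 neutrophil genes, -0.12 for 7 tested dendritic cell genes, 0.0099 for 8 T and NK cell genes, 0.44 for 10 fibroblast genes, 0.21 for 6 endothelial genes and 0.17 for 5 epithelial genes, beside 0.24 for all genes. The epithelial genes, which mark the labelled breast tumor, summed to 923 to 2174 TPM in control and 668 to 2316 in aCSF1R. In all, 11 of the 152 tested genes were lower in aCSF1R than in control and 0 higher, 32 having an unadjusted p below 0.05.

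**Figure D5:**
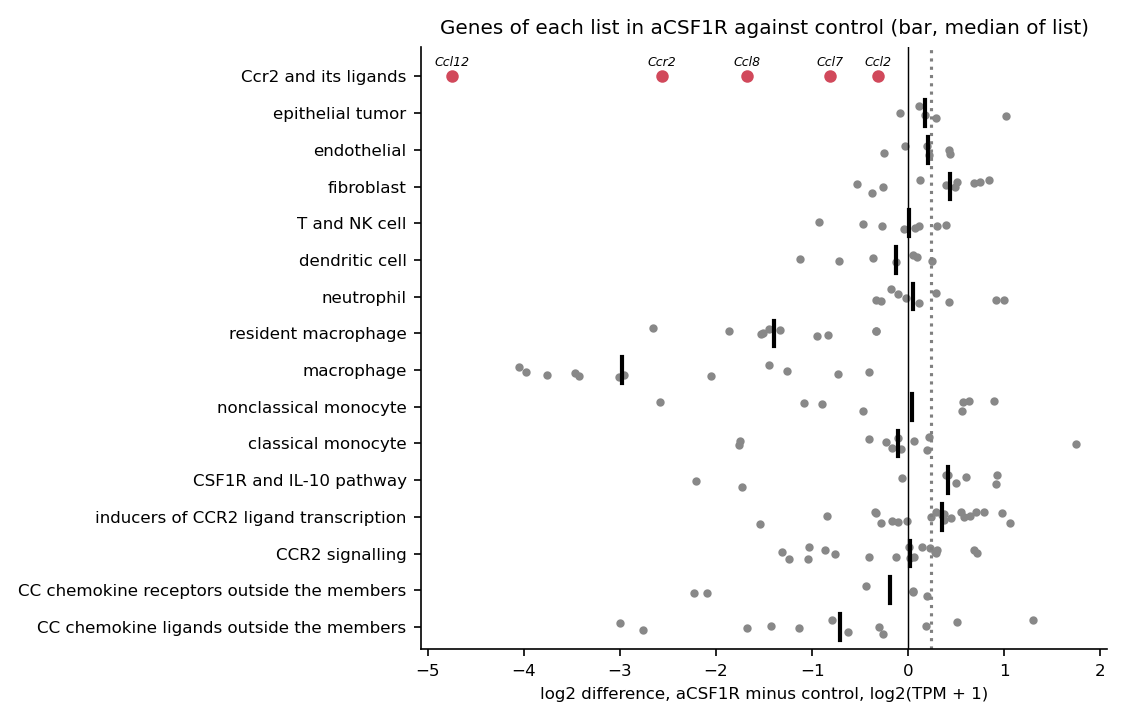
Differences in log2(TPM + 1) of aCSF1R minus control for each tested gene of the 15 lists (gray points, bar for the median) and for Ccr2 and its ligands (red), with the median of all genes dotted. The macrophage list (median -2.98) and the resident macrophage list (-1.39) lie left of 0, as do all 5 members, with Ccl7 (-0.81) and Ccl2 (-0.32) nearest to it. The medians of the other lists lie between -0.71 and 0.44.

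Against aCSF1R, macrophage genes were again the most often called. In BF10 against aCSF1R 8 macrophage genes were called as higher (median 2.94), with Msr1 at 3.75 (SE 0.22), C1qa at 3.66 (SE 0.37), C1qb at 3.63 (SE 0.48) and C1qc at 3.62 (SE 0.31), together with Pf4 at 2.71 (SE 0.40) and the monocyte gene Ms4a4c at 2.86 (SE 0.48). The classical monocyte list had a median of 0.67 there, and 1 of the 6 tested CC receptor genes was called as higher. In IL-10-Fc against aCSF1R 8 macrophage genes (median 2.65), 1 CC receptor gene, Pf4 at 2.63 (SE 0.40) and Ccl6 at 2.07 (SE 0.32) were called. In BF10 against control, IL-10-Fc against control and BF10 against IL-10-Fc limma called 0 of the 152 genes, with 7, 4 and 0 at an unadjusted p below 0.05, and the neutrophil genes of BF10 summed to 19273 TPM in the highest library and 761 in the lowest.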

How the data were processed

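RNA of 12 orthotopic 4T1 tumors was measured by bulk RNA-seq, with 3 libraries in each of 4 groups named by the labels. The authors' methods describe TRIzol extraction, stranded mRNA libraries and alignment to mm10. The submitters' processing notes name STAR 2.7.5a, RSEM 1.3.3 and DESeq2 1.28.0. The authors deposited FPKM values with 2 decimals, and all columns matched a sample (0 unmatched). Their 4 tables of DESeq2 comparisons (fold changes and p-values) were not used.

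FPKM was divided by its library sum to give TPM. Genes with TPM of at least 1 in at least 3 libraries were tested on log2(TPM + 1), which understates the change of low genes, with limma 3.58.1 (eBayes with trend, R 4.3.3) over all 12 libraries with 1 mean per group and 8 residual degrees of freedom. Genes were called at a Benjamini-Hochberg adjusted p below 0.05 and 1.5-fold, and the script was tested on simulated data. Depth is not given by FPKM. A scan for the worth of 1 read gave a rough 32500000 to 40200000 reads per library, with 32.2% to 41.3% of low values whole within 0.06, so no reads were recovered and no count test was run.

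The members, the lists and the term for the library sets were chosen with earlier results of these data known. Named genes were the 5 members, the genes of each list called in a comparison (the 4 largest where more were called), the cluster neighbours, the 3 genes most like each member, and Csf1r and Il10ra. Alternatives were a pseudocount of 0.1, FPKM without rescaling, scaling by the median of ratios, no filter on low values (every gene above 0 in at least 1 library), a TPM of at least 1 in all 12 libraries, a term for the library set, the replicate number as a block, only the 2 groups compared, no trend, and leaving out each library. Reads shared between related chemokine genes were not examined. Some single genes that this rule names are not reported here.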

Additional observations from a re-analysis of the deposited data

Results flagged for a closer look

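For 2 of the 5 genes, the differences of BF10 against aCSF1R and of IL-10-Fc against control had opposite signs. Ccl12 stood at 4.13 in BF10 against aCSF1R and at -0.85 in IL-10-Fc against control on the log2 scale, a gap of 4.97. Ccr2 stood at 2.44 and -0.56, a gap of 3.00. In IL-10-Fc against control neither gene passed the threshold (adjusted p 0.738 for both by limma), and the interval of Ccr2 includes 0. Both were singled out because all 3 BF10 libraries lay above the aCSF1R mean and all 3 IL-10-Fc libraries below the control mean. Only the 5 members were screened in this way, with no share over all genes computed. The same signs occurred outside them, as in C1qc (3.62 and -0.57) and Ccl6 (1.61 and -0.69). The count of 2 depends on scaling: under the median of ratios Ccl7 (0.59 and -0.35) and Ccl8 (1.44 and -0.31) had opposite signs too. Of the 12 macrophage genes 12 were higher in BF10 than in aCSF1R, while 6 were lower and 6 higher in IL-10-Fc than in control. The gap itself was not tested, since the low aCSF1R levels were known when the genes were chosen.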

How the results depend on the processing

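Of 315 differences with aCSF1R recomputed under an alternative, 311 kept their direction and moved by less than 1 SD of the libraries. Of 315 tested differences without aCSF1R 287 kept their direction, and no member was called under any of the 21 alternatives in the 3 comparisons without aCSF1R. Both counts of kept directions include settings that cannot move a difference by their design. These are the changed filters, no trend, only the 2 groups compared, and leaving out a library of another group. The counts are therefore no measure of robustness by themselves. Calls of members in the aCSF1R comparisons are counted as a description only, since the low levels there were known when the genes were chosen. Ccl12 kept its call in 21, 20 and 21 of 21 alternatives and Ccr2 in 20, 19 and 16 (control, BF10, IL-10-Fc). Ccl8 gained one in 1, against control without control replicate 5. Calls over all genes under several alternatives follow below. The reversed values in BF10 against control were -0.12 for Ccl2 under the median of ratios, and 0.12 for Ccl7 and 0.15 for Ccl8 with the library set as a term. In IL-10-Fc against control they were -0.13 for Ccl7 and -0.089 for Ccl8 with FPKM, and -0.35 and -0.31 under the median of ratios. Leaving out 1 library at a time gave, in BF10 against control, -0.30 to 0.66 for Ccl2, -0.57 to 0.50 for Ccl7, -0.84 to 0.31 for Ccl8 and -0.28 to 0.029 for Ccr2. In IL-10-Fc against control it gave -0.071 to 0.88 for Ccl2, -0.41 to 0.65 for Ccl7 and -0.61 to 0.54 for Ccl8. In BF10 against IL-10-Fc it gave -0.52 to 0.19 for Ccl2, -0.58 to 0.34 for Ccl7, -0.60 to 0.037 for Ccl8 and -0.070 to 0.46 for Ccl12. In aCSF1R against control Ccl2 ran from -0.86 to 0.092. The count of members with all aCSF1R libraries lowest ran from 3 to 5 against BF10 and from 3 to 5 against IL-10-Fc. It was 5 without BF10 replicate 7 and without IL-10-Fc replicate 2, settings with fewer libraries and no share over all genes computed. The 11 list genes called became 32 in each of the 3 aCSF1R comparisons with the set as a term, and in BF10 against aCSF1R 17 with FPKM and 20 under the median of ratios. Leaving out 1 library gave 8 to 11 against control, 7 to 13 for BF10 (lowest without BF10 replicate 3) and 6 to 12 for IL-10-Fc against aCSF1R (lowest without IL-10-Fc replicate 4). Over all genes, the 88, 114 and 84 calls became 312, 437 and 330 with the set as a term and 4, 0 and 12 with only the 2 groups compared, a fit with fewer samples, and without 1 library they ran from 55 to 90, 56 to 108 and 24 to 92. Scaling by the median of ratios gave 135 against control. The cause of the other changes was not tested.

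Replicate numbers come from the sample titles, and the deviations of same-numbered libraries had r from -0.663 to 0.417 over 7 pairs (median -0.389). Pairs within a library set had r of 0.349 and 0.417, and pairs across the sets ran from -0.663 to -0.260. The pairs are thus mixed with the library sets and cannot show whether the numbers pair the samples, and the main fit did not pair them. With the replicate number as a block (correlation -0.366) 0 members were called in each comparison without aCSF1R, Ccl2 stood at -0.23 in BF10 against control, at 0.044 in aCSF1R against control and at -0.28 in BF10 against aCSF1R, and Ccl7 at -0.15 in the last. The block gave 86, 116 and 68 calls over all genes in the aCSF1R comparisons. Precision is limited by 3 libraries a group, and Ccl12 in aCSF1R rests on few reads.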
